A study of Mus musculus with 3 samples.

Results

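The semaphorin genes Sema3a, Sema3c, Sema3d, Sema3g and Sema6a, the neuropilin genes Nrp1 and Nrp2 and the plexin gene Plxnd1 were followed across the stroma of the aged mouse thymus, 8 genes of 32293 features counted. The 8 symbols were fixed by name after a first look at these data, in which levels by cell class and by library were seen, and the set was thus selected on measured values, namely CPM and share of positive cells by class and library. Their levels by class and their ratios between libraries are therefore given as descriptions with no test. Each of the 3 libraries was the only one of its group. Foxn1Lin female and Foxn1Lin male came from C57BL/6 mice that carried Foxn1-Cre and a tdTomato reporter behind a lox-stop-lox cassette at Rosa26, which labels cells with a history of Foxn1, a gene of thymic epithelium, and wild type male came from C57BL/6 mice. All mice were 20 months old, no group was treated, thymi of several mice were pooled for each library, and the cells were sorted as CD45-, without hematopoietic cells. One label of the wild type library gives CD45-PECAM1+ cells in place of CD45-, and one protocol text names female mice for every library, against the titles.

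Class 3 semaphorins are secreted ligands that bind neuropilins, and the neuropilin passes the signal to a plexin in the same membrane. Nrp1 and Nrp2 are also coreceptors for VEGF family ligands on blood and lymphatic vessels. Plxnd1 is the plexin best known from endothelium, where it mediates repulsive guidance of growing vessels, and Sema6a is a transmembrane ligand that signals through class A plexins.

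Each called barcode was put into 1 of 5 classes by its own counts of unique molecular identifiers (UMIs): thymic epithelial cells (TEC) by Epcam, endothelial cells (EC) by Pecam1, fibroblasts (FB) by Pdgfra, each with 2 or more UMIs, mural cells by 5 or more UMIs of Rgs5 and Acta2 together, and mesothelial cells by 2 or more UMIs of Upk3b. Lists of 3 values below are ordered as Foxn1Lin female first, Foxn1Lin male next and wild type male last. The libraries held 1883, 823 and 862 EC, 1852, 864 and 1709 FB, 467, 430 and 878 TEC, 427, 449 and 353 mural cells, and 340, 0 and 36 mesothelial cells. Barcodes that met 2 or more rules (594, 174 and 445) or none (3053, 843 and 1195) were left out of the classes. The summed level of 6 EC marker genes was 4124 to 4581 UMIs per 1000000 UMIs of the class (CPM) in EC and at most 300.4 CPM in any other class of any library, and each other class was highest for its own list. Each list holds the gene or genes that define its class, so this separation is in part set by the rule. The separation was least for the FB list, at 14513 to 17462 CPM in FB but also at 9471 and 10298 CPM in mesothelial cells of Foxn1Lin female and wild type male. The TEC class also held cells of another kind: parathyroid markers (Gcm2, Pth, Casr and Chga) summed to 2881, 5173 and 2749 CPM in it, and 39, 19 and 46 TEC had 2 or more UMIs of Gcm2, Casr and Chga. Without these cells, an alternative added after the data were seen, TEC levels are given where they change a result. The libraries had 3583 to 8616 called barcodes with median depths of 4675 to 7947 UMIs, and pairs of libraries shared 3 to 14 barcode sequences. The female library stood apart in several respects. Barcodes that were not called as cells held 26.5% of its UMIs, against 12.9% and 9.46% in the male and wild type libraries, its sequencing saturation was 52.1% against 81% and 72.8%, and red cell genes summed to 8107 CPM in its barcodes of no class, against 22.3 and 176 CPM. These uncalled barcodes mostly hold free RNA, and their CPM is given beside each gene. A level is the CPM over all cells of a class in a library, and intervals are exact 95% Poisson intervals, which cover counting error only.

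The promoters of Sema3g, Nrp2 and Plxnd1 are shown because all 3 genes had high levels in EC, although Plxnd1 was as high in mural cells in part of the libraries. Nrp1 was high in EC too, but its window lies past the start of the gene in GENCODE vM21, inside the gene, and is not printed. Windows of 200 bases, from 250 to 51 bases before the RefSeq start on GRCm38.p6, were read 5′ to 3′ on the strand of the gene. Capitals mark AGGAAG or its reverse complement CTTCCT, a hexamer around the GGAA core that ETS factors bind, searched on both strands. The Sema3g window had 1 place, that of Plxnd1 had 2, and that of Nrp2 had no match. Of 7 members matched by symbol, 4 held the hexamer (Sema3a, Sema3g, Nrp1 and Plxnd1), beside 23.9% of the 32851 promoter windows of this length. A match is a description of letters and no binding was measured.
Sema3g, chr14:31217623-31217822, plus strand: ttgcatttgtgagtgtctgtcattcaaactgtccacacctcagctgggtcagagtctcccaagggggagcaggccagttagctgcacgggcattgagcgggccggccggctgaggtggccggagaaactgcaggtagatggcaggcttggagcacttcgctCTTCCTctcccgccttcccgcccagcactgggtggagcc
Plxnd1, chr6:115995056-115995255, minus strand: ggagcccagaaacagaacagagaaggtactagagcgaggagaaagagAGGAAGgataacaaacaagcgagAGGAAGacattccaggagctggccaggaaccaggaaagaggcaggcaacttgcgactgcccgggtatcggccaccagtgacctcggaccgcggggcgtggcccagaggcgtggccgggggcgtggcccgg
Nrp2, chr1:62703067-62703266, plus strand: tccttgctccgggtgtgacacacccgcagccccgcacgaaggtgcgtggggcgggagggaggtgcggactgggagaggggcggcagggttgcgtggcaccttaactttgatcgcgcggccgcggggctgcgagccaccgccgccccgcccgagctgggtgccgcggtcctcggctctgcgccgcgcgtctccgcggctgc

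Among the ligands, Sema3g had the narrowest pattern. Sema3g is a secreted class 3 semaphorin known from endothelium (chromosome 14, 31217860 to 31230352, plus strand, with no overlapping gene in GENCODE vM21). In EC it was at 70.8 CPM in the female library (65.5 to 76.4), 74.3 in Foxn1Lin male (68.3 to 80.7) and 131 in wild type male (123 to 140). Mural cells came next, at 4.15, 3.64 and 3.74 CPM, and FB, TEC and mesothelial cells were at 1.26 CPM or less in every library. The EC intervals lay above those of every other class in all 3 libraries. Of EC, 19.6%, 25.8% and 31.4% had a Sema3g UMI at median depths of 3854, 7355 and 6954.5 UMIs, against 0.428%, 0% and 0.683% of TEC at 10837, 12384 and 15993 UMIs. The 0 of 430 male TEC allows a share of up to 0.698% of cells with a UMI, which is no limit on cells that express the gene. Thinned to 2000 UMIs a cell, with 301, 30 and 45 shallower EC left out, the EC shares were 11.9%, 12.5% and 18.1%. Uncalled barcodes held 17.4, 20.4 and 21.4 CPM.

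Sema6a, the transmembrane ligand, was also highest in EC. Sema6a lies on the minus strand of chromosome 18 and overlaps no other gene in GENCODE vM21. Its EC level was 397 CPM in the female library, 558 in Foxn1Lin male and 689 in wild type male, and EC were first in every library with intervals apart from the next class. FB were at 54.7, 41.5 and 38.9 CPM, TEC at 23.8, 13.0 and 30.2 CPM, and mural cells at 26.4, 14.6 and 12.5 CPM. Mesothelial cells were at 34.6 CPM in Foxn1Lin female and 74.8 in wild type male, where 1 of the 36 cells held 64.7% of the 34 UMIs. Uncalled barcodes held 66.5, 85.8 and 77.5 CPM, so EC alone were above the uncalled level, in all 3 libraries.

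Sema3a, a repulsive ligand of Nrp1-bearing axons and vessels, was spread over several classes (chromosome 5, 13125414 to 13602565, plus strand, overlapping 4 other annotated loci). FB had 53.5, 95.6 and 132 CPM, and TEC had 53.9, 58.2 and 75.1 CPM. FB led with intervals apart in the male and wild type libraries, whereas FB and TEC overlapped in Foxn1Lin female. EC had 12.7, 58.8 and 73.7 CPM, yet 2.55%, 7.29% and 5.68% of EC held a UMI, against 22.3%, 23.7% and 36.8% of TEC. Thinned to 2000 UMIs the shares were 1.07%, 3.40% and 3.55% of EC and 7.98%, 7.56% and 12.8% of TEC. Few cells held much of the Sema3a of each of these classes. EC with 5 or more Sema3a UMIs numbered 5, 21 and 16, and they held 51.3%, 84.6% and 89.1% of all endothelial Sema3a UMIs. Such cells numbered 19, 17 and 91 among TEC, with 54.7%, 60.5% and 67.9% of the UMIs, and 32, 55 and 107 among FB, with 31.4%, 63.6% and 62.0%. Mural cells were at 9.85, 16.8 and 32.4 CPM, and 1, 3 and 6 of them with 5 or more UMIs held 31.6%, 34.8% and 79.5% of their Sema3a UMIs. Uncalled barcodes were at 17.2, 47.0 and 63.9 CPM.

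Sema3d was highest in mesothelial cells, the lining of the organ surface. Sema3d is a secreted class 3 ligand (chromosome 5, 12383385 to 12588948, plus strand, overlapping 2 other annotated loci). The mesothelial level was 185 CPM in Foxn1Lin female (172 to 199) and 273 in wild type male (227 to 325), with a UMI in 52.6% and 72.2% of cells, or 26.0% and 36.1% when thinned, against 3.0% and 3.87% of TEC at similar or greater depth. The male library had no mesothelial cell. FB were at 33.2, 4.52 and 5.06 CPM, EC at 14.6, 0.525 and 0.936 CPM, TEC at 6.30, 3.10 and 7.85 CPM and mural cells at 10.4, 2.92 and 9.55 CPM. Without the TEC that carried parathyroid markers, TEC were at 3.45, 2.82 and 7.71 CPM. Uncalled barcodes held 12.7, 5.26 and 9.69 CPM. In Foxn1Lin female, 7 EC with 5 or more UMIs held 74.5% of the 137 endothelial Sema3d UMIs. The 10 EC of that library with 3 or more UMIs of the lymphatic markers Prox1, Lyve1, Mmrn1 and Reln had 1119 CPM of Sema3d and 3863 CPM of the lymphatic list, which here includes Flt4.

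Sema3c, a secreted class 3 ligand of vessel and heart development, did not follow cell class in Foxn1Lin female. It lies on chromosome 5, 17574281 to 17730268, on the plus strand, and overlaps no annotated gene. In Foxn1Lin female it was at 1076 CPM in EC, 1049 in FB, 1019 in TEC, 1347 in mural cells and 1125 in mesothelial cells, and 93.4% to 98.2% of the cells of each class had a UMI (80.2% to 88.8% when thinned to 2000 UMIs). In Foxn1Lin male it was at 12.9, 28.0, 6.36 and 1.46 CPM in EC, FB, TEC and mural cells, and in wild type male at 17.8, 54.4, 9.88 and 1.66 CPM. The wild type mesothelial cells were at 383 CPM (328 to 444), with a UMI in 80.6% of the 36 cells, or 38.9% when thinned. The female levels lay above those of the other libraries in every class, and within the female library the classes differed by a factor of 1.32 from lowest to highest. In the other libraries the classes differed more, with FB above EC, EC above TEC and TEC above mural cells, each interval apart from the next.

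Uncalled barcodes of Foxn1Lin female held 2181 CPM of Sema3c, against 20.6 and 36.1 CPM in the male and wild type libraries. The class level was 0.467 to 0.618 of the uncalled level in Foxn1Lin female. Marker genes of other classes served as a proxy for free RNA in a class. RNA made by the cells of the class counts in them too. They stood at medians of 0.0616 to 0.192 of their uncalled level in the same library, and free RNA at that rate would give 134 to 418 CPM of Sema3c. The ratio varied between single markers, with the highest at 1.09 in TEC, 0.311 in EC, 1.13 in FB, 0.697 in mural cells and 3.78 in mesothelial cells. All 5 female classes were above the level given by the median marker, but only EC were above every marker used, and the part of free RNA in the classes was not tested further. Of 852 genes at 100 CPM or more in every female class, 470 differed by less than a factor of 2 between classes, and Sema3c was the 1 gene of these that was also at 8 or more times the highest male class in its lowest female class. Just outside were Xist, an RNA made from the inactive X chromosome, at a factor of 2.23 between classes and 343 times the male level, and Gm19951 at 2.13 and 31.5 times, while Sema3c stood at 1.32 and 36.3 times. These limits were chosen after the values were seen.

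**Figure D1:**
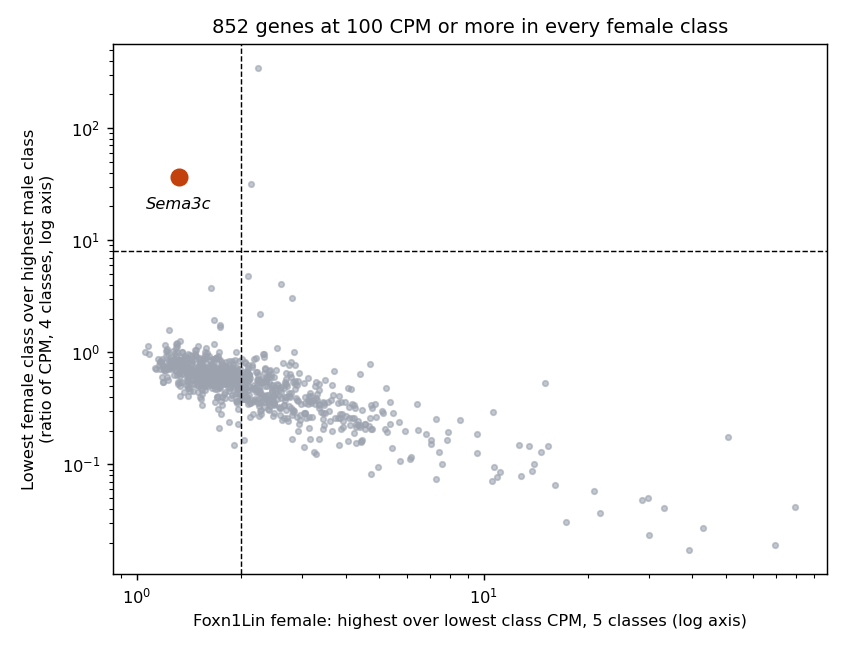
Each point is 1 of the 852 genes at 100 CPM or more in every class of Foxn1Lin female. The horizontal axis gives the ratio of the highest to the lowest class within that library and the vertical axis the lowest female class over the highest Foxn1Lin male class, both on log axes; dashed lines stand at 2 and 8, and Sema3c (1.32, 36.3) is alone in the upper left field.

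Of the receptors, Nrp1 and Nrp2 were highest in EC in every library. Nrp1 (chromosome 8, 128358604 to 128503363, plus strand, overlapping Mir1903) was at 690 CPM in EC of Foxn1Lin female, 557 in Foxn1Lin male and 785 in wild type male. FB followed at 241, 278 and 542 CPM and mural cells at 196, 165 and 228 CPM. TEC were at 19.8, 17.5 and 27.0 CPM, the lowest of the 4 classes found in every library. The order EC, FB, mural cells held in all 3 libraries with intervals apart. Of EC, 81.6%, 85.4% and 86.8% had an Nrp1 UMI, against 17.6%, 13.7% and 22.8% of TEC, which were deeper, and thinned shares were 67.9%, 57.1% and 66.3% against 3.99%, 3.41% and 5.54%. Uncalled barcodes held 176, 144 and 168 CPM.

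Nrp2 is the neuropilin better known from veins and lymphatic vessels (chromosome 1, 62703285 to 62818695, plus strand, overlapping 2 loci, 1 of them antisense). It was at 386, 409 and 523 CPM in EC and at 88.9, 185 and 182 CPM in FB. Mural cells had 83.5, 53.9 and 72.6 CPM and TEC 63.3, 47.0 and 41.1 CPM. EC stood apart from every other class in each library. FB and mural cells could not be told apart in Foxn1Lin female, where their intervals overlapped. Uncalled barcodes held 95.9, 98.6 and 116 CPM.

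Plxnd1, the plexin that receives semaphorin signals in endothelium, was shared by EC and mural cells (chromosome 6, 115954811 to 115995005, minus strand, with no overlapping gene). EC had 183, 101 and 159 CPM and mural cells 118, 105 and 137 CPM. EC were above mural cells with intervals apart in Foxn1Lin female only, and the intervals overlapped in the other libraries. FB followed at 46.2, 55.4 and 105 CPM, and TEC were at 27.0, 13.3 and 14.0 CPM. Mesothelial cells had 5.5 CPM in Foxn1Lin female and 2.2 CPM, from 1 UMI, in wild type male. Uncalled barcodes held 88.8, 61.3 and 83.3 CPM.

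Over the 8 genes and 3 libraries, EC were the highest of EC, FB, TEC and mural cells in 14 of 24 pairs, all 3 libraries for Sema3g, Sema6a, Nrp1 and Nrp2 and 2 for Plxnd1. Over all genes with 20 or more UMIs in these classes of a library the share was 19.3% of 51798 pairs, and nothing is read from the difference because the members were chosen on these levels. With the median ratio of other classes' markers to their uncalled level as a proxy for free RNA, 14 levels of a gene in a class and library had no interval above the level so expected. These were 9 of Sema3g outside EC, Sema3c in mural cells of the male and wild type libraries, Plxnd1 in mesothelial cells of both libraries that had them, and Nrp1 in TEC of Foxn1Lin female.

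**Figure D2:**
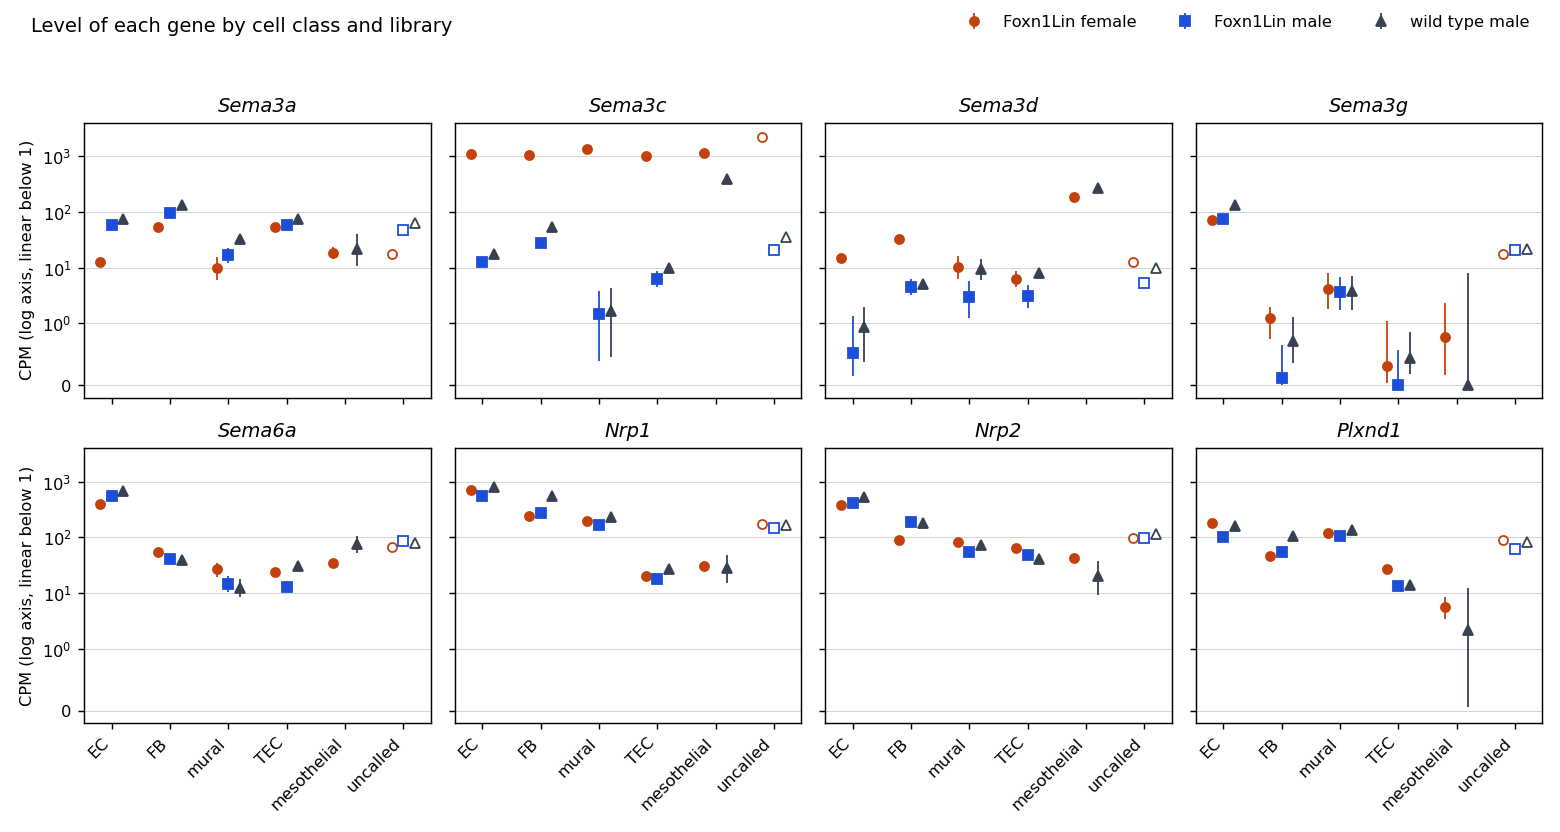
Level of each gene in CPM (vertical axis, logarithmic above 1 and linear below) by class, with exact 95% Poisson intervals; open symbols are uncalled barcodes, and circles, squares and triangles are Foxn1Lin female, Foxn1Lin male and wild type male. Sema3g, Sema6a, Nrp1 and Nrp2 peak in EC, Sema3d in mesothelial cells, and Sema3c is near 1000 CPM or above in every female class.

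Genes whose pattern was most like each member were taken by Pearson's r of log2(CPM + 1) over the 14 sums of a class in a library with 20 or more cells, among 14487 genes with 200 or more UMIs. The sums share libraries and uncalled RNA, and r is given as a description. Sema3g was closest to Gata2 (r = 0.99), Efr3b (0.98) and Syt15 (0.97). Sema6a was closest to Mospd2, Cd38 and Wars (0.97, 0.97 and 0.96), Nrp1 to Ptpn12, Eng and Ebf3 (all 0.97), Nrp2 to Dach1, Ecscr and Plvap (0.98, 0.97 and 0.97), and Plxnd1 to Nol10, Gm11476 and Fmnl3 (0.97, 0.97 and 0.96). Sema3d was closest to Hnrnpul2, Upk3b and Foxo6 (0.94, 0.92 and 0.92), of which Upk3b defined the mesothelial class, Sema3a to Rnf19b, Pign and Itm2c (0.95, 0.91 and 0.89), and Sema3c to Lars2, Cmss1 and Gm14164 (0.89, 0.88 and 0.88).

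Within classes, the genes were compared between cell types that were called from other genes. The choice of members had not used these genes, except Rgs5 and Acta2 in the mural comparison. Counts were summed over the cells of a type and of the remaining cells in each library, and the difference was tested across the 3 libraries with edgeR's quasi-likelihood test, the library as a block, and Benjamini-Hochberg adjustment over all genes tested. Replicates here are libraries of pooled mice that also differ in sex and genotype. The p weighs the size of a difference against a spread estimated from the 3 libraries and from all genes. A gene can therefore go one way in all 3 libraries and not pass. Arterial-type EC had 2 or more UMIs over Gja4, Gja5, Bmx, Hey1 and Sox17 and more of these than of the venous genes Selp, Ackr1, Vcam1 and Vwf, and venous-type EC were called the other way round. There were 552, 239 and 182 arterial-type and 218, 370 and 425 venous-type EC. Both types were deeper than the cells they were compared with, by medians of 5392.5, 8128 and 8066 against 3220, 7145.5 and 6739.5 UMIs for arterial-type and 6400.5, 9938.5 and 9270 against 3608, 5948 and 5193 UMIs for venous-type EC. The part of depth in the results was not tested. Each comparison set a type against all other EC, so the arterial and venous results share cells and are not independent.

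Sema3g was the member with the clearest arterial difference. It was at 116 CPM in arterial-type against 43.2 CPM in other EC of Foxn1Lin female, at 123 against 51.9 in Foxn1Lin male and at 243 against 97.7 in wild type male. All 3 libraries were higher, by 2.38 to 2.68 times, and the log2 fold change was 1.33 ± 0.11 (SE, n = 3 libraries; edgeR adjusted p = 0.000244). Nrp1 rose by 0.49 ± 0.14 (adjusted p = 0.0432), from 730, 760 and 1073 CPM in arterial-type against 666, 464 and 698 CPM in other EC, and the female ratio was 1.10. Plxnd1 rose by 0.38 ± 0.11 (adjusted p = 0.0468), from 202, 123 and 200 CPM against 171, 90.9 and 147 CPM. Sema3a fell by 4.20 ± 0.54 on the log2 scale (adjusted p = 0.00165), with 16, 2 and 4 UMIs in arterial-type and 103, 446 and 547 UMIs in other EC. The ratio was 0.254 in the female library, 0.0098 in the male and 0.0242 in the wild type library, and the log2 fold change was −5.96 without the female and −3.39 without the male library. Thus 4 of the 7 members tested passed, beside 13.5% of the 12088 genes tested. Sema6a, Nrp2 and Sema3c did not pass, with log2 fold changes of −0.37, −0.28 and 0.16, and Sema3d had too few counts. Of these, Nrp2 was lower in 3 libraries with intervals apart from 1. The median over the members tested was 0.16, against 0.00 over all genes. DESeq2 called 3 of the 7, without Plxnd1 (DESeq2 adjusted p = 0.141). Marker lists of other classes were lower in arterial-type EC, those of FB at 313, 33.9 and 43.8 against 946, 85.4 and 122 CPM, of TEC at 147, 55.2 and 154 against 436, 187 and 262 CPM, and of mural cells at 136, 33.0 and 23.1 against 214, 194 and 114 CPM. The hematopoietic list was lower too, at 89.7, 20.9 and 61.7 against 178, 77.7 and 222 CPM. The part of these lists in the results was not tested. With no library block in the fit, 0 of the 4 calls held, with edgeR adjusted p = 0.25 for Sema3g and 0.0605 for Sema3a at log2 fold changes of 1.31 and −4.59. With 3 marker UMIs to call a type, Sema3g and Sema3a passed and Nrp1 and Plxnd1 did not. Plxnd1 also lost its call without the highest Scrublet scores and with no filter on low counts. The calls of Nrp1 and Plxnd1 were lost without Foxn1Lin male (edgeR adjusted p = 0.298 and 0.22) and without wild type male (0.254 and 0.228).

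Venous-type EC carried most endothelial Sema3a in each library. The female library had 73 UMIs in venous-type and 46 in other EC, the male library 443 and 5, and the wild type library 544 and 7. As levels these were 40.4 against 6.09 CPM, 107 against 1.45 CPM and 121 against 2.36 CPM, and the groups did not overlap. The log2 fold change was 4.46 ± 0.52 (edgeR adjusted p = 0.000967). Without the female library it was 6.08, and without EC carrying lymphatic markers, an alternative added after the data were seen, it was 4.54. Nrp2 was higher as well, at 461, 492 and 569 against 368, 308 and 454 CPM (0.58 ± 0.13, adjusted p = 0.0195). Nrp1 moved the other way, at 414, 331 and 532 against 757, 828 and 1169 CPM (−0.98 ± 0.13, adjusted p = 0.00154), as did Sema3g at 37.6, 49.1 and 102 against 78.8, 105 and 176 CPM (−0.82 ± 0.13, adjusted p = 0.00314). Passing members were 4 of 7, beside 20.1% of 11958 genes. Sema6a was at 0.53 ± 0.17 and did not pass in edgeR (adjusted p = 0.0604) but did in DESeq2 (adjusted p = 0.0306). Sema3c was at −0.40 and Plxnd1 at −0.28, with a median over the members tested of −0.28 against 0.00 over all genes. Although not called in edgeR, Sema6a was higher and Plxnd1 lower in 3 libraries, with intervals apart from 1. Marker lists of other cells differed as well: the 6 TEC genes summed to 778, 212 and 294 CPM in venous-type and 218, 65.9 and 151 CPM in other EC, the 7 FB genes to 916, 90.0 and 122 against 656, 44.2 and 75.1 CPM, the 6 mural genes to 245, 230 and 134 against 170, 39.3 and 30.7 CPM, and the 5 lymphatic genes to 207, 23.6 and 33.3 against 81.8, 53.8 and 66.0 CPM. Their part in the results was not tested. With no library block, Sema3a alone was called. Nrp2 lost its call without Foxn1Lin male (edgeR adjusted p = 0.162) or wild type male (0.125).

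The few Sema3a-rich EC had higher levels of the venous genes Selp and Ackr1 than EC without a Sema3a UMI in all 3 libraries. The 21 of Foxn1Lin male had 6039 CPM of Selp, an adhesion receptor of activated and postcapillary venous endothelium, 984 CPM of Ackr1, a chemokine receptor of venules, and 156 CPM of Glycam1, a ligand of high endothelial venules, against 1925, 254 and 5.99 CPM in EC without a Sema3a UMI. The 16 of wild type male had 5302, 637 and 2216 CPM of Selp, Ackr1 and Glycam1, against 1922, 170 and 1.04 CPM. The 5 of Foxn1Lin female had 2398 and 343 CPM of Selp and Ackr1, against 360 and 45.3 CPM. They had 0 UMIs of Glycam1, against 871 CPM in female EC without a Sema3a UMI. They also had 2175 CPM of Lyve1, 1096 of Reln and 308 of Prox1, lymphatic genes that were at 2.46 CPM or less in female EC without a Sema3a UMI. These genes were looked up after the cells had been seen, and no test was made.

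In fibroblasts, the ligands Sema3d and Sema3c were higher and the receptors Nrp1, Nrp2 and Plxnd1 lower in capsular-type cells. Capsular-type FB were those with 2 or more UMIs over Pi16, Dpp4 and Smpd3, 935, 104 and 209 cells against 917, 760 and 1500 other FB. Sema3d was at 55.3, 21.6 and 30.6 CPM in capsular-type and 2.82, 1.87 and 1.06 CPM in other FB, 19.6, 11.5 and 28.8 times higher (log2 fold change 4.28 ± 0.25, edgeR adjusted p = 4.05e-05). Sema3c was at 1177, 184 and 372 CPM against 871, 3.88 and 4.79 CPM. Its ratio was 1.35 in the female library, 47.4 in the male and 77.6 in the wild type library. The log2 fold change was 4.01 ± 1.11 (edgeR adjusted p = 0.0377), 6.00 without the female library, and 2.50 with no call without wild type male (edgeR adjusted p = 0.103). The mesothelial marker list was at 13.9, 0.864 and 5.34 CPM in capsular-type and 15.6, 0.937 and 2.74 CPM in other FB. Without FB that held 2 or more UMIs of these markers, an alternative added after seeing the data, Sema3d and Sema3c were at 4.31 and 4.01 on the log2 scale.

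The receptors were lower in capsular-type FB. Marker lists of EC, at 55.9, 26.8 and 10.7 against 80.7, 36.9 and 36.7 CPM, and of mural cells, at 119, 58.7 and 42.3 against 176, 175 and 141 CPM, were lower as well, and their part was not tested. Nrp1 stood at 167, 146 and 243 CPM, against 342, 298 and 588 CPM for other FB (−1.11 ± 0.13, edgeR adjusted p = 0.000431). Nrp2 was at 61.2, 111 and 85.5 against 127, 197 and 197 CPM (−1.02 ± 0.12, adjusted p = 0.000576), and Plxnd1 at 26.9, 32.0 and 45.7 against 72.7, 59.0 and 115 CPM (−1.26 ± 0.14, adjusted p = 0.000331). Each of the 3 genes was lower in 3 of 3 libraries. With no library block, Sema3d alone was called, and Nrp1, Nrp2 and Plxnd1 had edgeR adjusted p = 0.0752, 0.0782 and 0.0502. Of 7 members tested, 5 passed, beside 16.6% of 13143 genes. Sema3a (−0.20) and Sema6a (0.20) did not pass, and Sema3g had too few counts. The median over the members tested was −0.20, against −0.02 over all genes. Capsular-type FB were deeper, by medians of 8562, 10767 and 8892 against 6169, 9248 and 8097 UMIs.

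Among mural cells, both neuropilins were higher in pericyte-type cells (2 or more UMIs of Rgs5, Kcnj8, Abcc9 and Cspg4, and more of these than of Myh11, Acta2 and Tagln) than in smooth muscle-type cells. Rgs5 and Acta2 also define the mural class, so this split is not free of the class rule. Nrp1 was at 405, 289 and 338 CPM in pericyte-type and 89.9, 123 and 167 CPM in smooth muscle-type cells (1.32 ± 0.23, edgeR adjusted p = 0.0241). Nrp2 was at 185, 93.0 and 126 against 32.3, 40.1 and 43.8 CPM (1.60 ± 0.25, adjusted p = 0.0202). Plxnd1 did not pass, at 106, 97.2 and 144 against 125, 108 and 132 CPM, with a log2 fold change of −0.22 ± 0.19. Sema6a was at 47.7, 29.6 and 17.5 against 15.8, 7.93 and 9.81 CPM and did not pass (1.32 ± 0.31, adjusted p = 0.0552). Passing members were 2 of 5, beside 6.33% of 9182 genes, with a median over the members tested of 1.32 against −0.01 over all genes, and with either Foxn1Lin male or wild type male left out 0 members passed. With no library block, Nrp2 alone was called. The EC marker list was at 451, 53.5 and 37.2 CPM in pericyte-type and 90.7, 20.8 and 14.4 CPM in smooth muscle-type cells, the TEC list at 438, 162 and 582 against 366, 91.2 and 126 CPM, and the FB list at 1352, 733 and 1227 against 555, 1324 and 797 CPM. Their part in the neuropilin levels was not tested. The cells numbered 155, 140 and 143 against 270, 303 and 208, with median depths of 3759, 4460 and 5008 against 4359, 6086 and 7045.5 UMIs.

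In TEC, cells of the age-associated type aaTEC1 (2 or more UMIs over Cldn3 and Plet1, 133, 124 and 289 cells) were compared with 334, 306 and 589 other TEC. None of the 7 members tested passed in edgeR, beside 7.02% of 14406 genes, 2 had an unadjusted p under 0.05, and DESeq2 called 1. These were Nrp2, at 96.3, 59.4 and 48.8 against 49.3, 39.0 and 35.4 CPM (0.69 ± 0.15, edgeR adjusted p = 0.0519), and Nrp1, at 15.0, 13.4 and 17.9 against 21.8, 20.2 and 33.6 CPM (−0.69 ± 0.17, edgeR adjusted p = 0.0678), of which DESeq2 called Nrp2. Each went one way in 3 of 3 libraries. Sema3a, by contrast, was at 81.8 against 42.1 CPM in Foxn1Lin female, 33.8 against 74.1 CPM in Foxn1Lin male and 75.7 against 74.7 CPM in wild type male. The median over the members tested was −0.02, against −0.03 over all genes. Parathyroid markers were spread unevenly over this comparison, at 7963, 75.5 and 6474 CPM in aaTEC1-type and 738, 8496 and 24.7 CPM in other TEC. In aaTEC1-type cells the mesothelial list was higher, at 243, 110 and 89.3 against 51.3, 30.5 and 36.8 CPM. So was the hematopoietic list, at 946, 503 and 404 against 559, 325 and 359 CPM. The FB list was lower, at 388, 161 and 162 against 417, 352 and 370 CPM, as was the mural list, at 149, 155 and 106 against 189, 212 and 174 CPM. The part of these lists was not tested. Without TEC that held 2 or more UMIs of Gcm2, Casr and Chga, 0 members passed in edgeR, with Nrp2 at 0.72 (adjusted p = 0.109), Nrp1 at −0.92 (adjusted p = 0.0543) and Sema3a at 0.20 (adjusted p = 0.80). The aaTEC1-type cells were deeper, at medians of 11332, 16705 and 20735 against 10147.5, 10292.5 and 13443 UMIs.

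**Figure D3:**
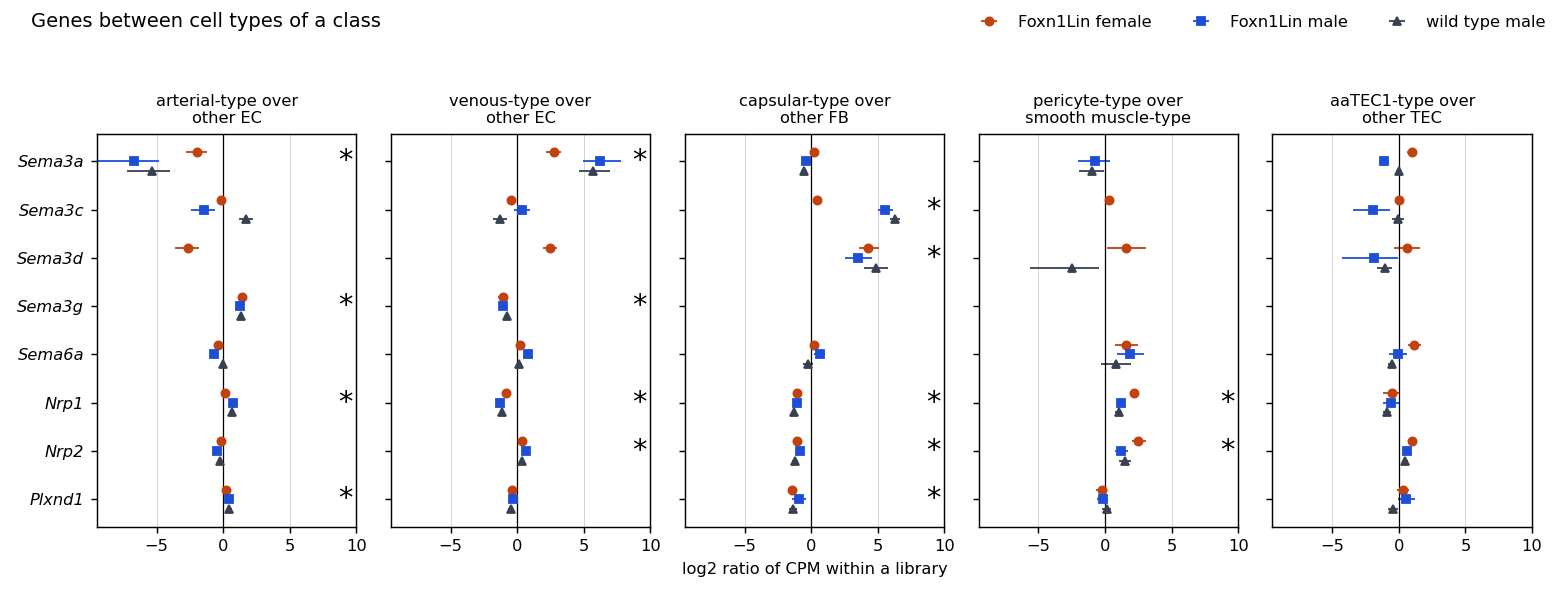
Log2 ratio of CPM between a cell type and the cells it was compared with (horizontal axis), by gene, in Foxn1Lin female (circles), Foxn1Lin male (squares) and wild type male (triangles), with conditional binomial 95% intervals; pairs with under 20 UMIs or a count of 0 are left out. An asterisk marks an edgeR adjusted p under 0.05 across libraries, and Sema3a lies left of 0 in arterial-type and right of 0 in venous-type EC in all 3 libraries.

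The other genes of the pathway were followed by a list of 35: 15 ligands, 8 plexins and 12 carriers of the signal inside the cell. This list was chosen with earlier results of these data known, and the genes named below have the largest changes. Their adjusted p values are thus no independent support. Each of EC, FB, TEC and mural cells was tested against the mean of the other 3 classes over the 3 libraries, and 33 genes passed the filter on low counts, all but Sema4f and Plxnb3. In EC, 11 were higher and 14 lower, beside 24.2% and 24.6% of 16565 genes, and the median log2 fold change was −0.26 against −0.05 over all genes. By role, 5 of 14 ligands were higher and 5 lower, 2 of 7 plexins higher and 4 lower, and 4 of 12 carriers higher and 5 lower. The largest rises were of Sema7a, a membrane-anchored semaphorin, at 156, 176 and 210 CPM in EC and 18.1 or less elsewhere (4.53 ± 0.27, edgeR adjusted p = 2.11e-06), Sema6b, a transmembrane ligand related to Sema6a, at 77.1, 66.8 and 69.3 CPM (4.21 ± 0.14, adjusted p = 4.23e-07), and Plxna4, a class A plexin, at 150, 177 and 309 CPM in EC and, in mesothelial cells outside this contrast, 787 and 711 CPM in Foxn1Lin female and wild type male (4.03 ± 0.29, adjusted p = 5.60e-06). Rnd1, a small GTPase that binds plexins, was at 278, 535 and 525 CPM (3.61 ± 0.24, adjusted p = 4.10e-06). The largest falls were of Sema3e, a ligand that binds Plxnd1 directly, at 3.10, 0 and 0.401 CPM in EC (−3.58 ± 0.77, adjusted p = 0.00420), Sema5a (−3.17), Plxnb1 (−2.55) and Sh3bp1 (−2.41).

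In FB, 14 were higher and 10 lower, beside 21.5% and 21.2% of all genes tested, with a median of 0.18 against −0.04. The counts were 5 and 4 of the ligands, 3 and 2 of the plexins and 6 and 4 of the carriers. Plxnc1, the receptor of Sema7a, led at 14.5, 20.3 and 32.0 CPM (3.39 ± 0.28, edgeR adjusted p = 2.61e-05), followed by Sema5a (2.42), Sema3e (1.94) and Dpysl3 (1.93). Sema3f fell by 3.83 on the log2 scale, Sema5b by 3.09, Plxnb1 by 2.81 and Plxna4 by 2.00. Sema3e was at 43.9, 13.2 and 7.36 CPM in FB and at 22.4, 35.4 and 18.5 CPM in TEC.

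In TEC, 10 were higher and 13 lower, beside 31.6% and 27.4%, with a median of −0.24 against 0.06. Of the carriers, 7 of 12 were lower and 3 higher, with a median of −1.47. Of ligands 5 rose and 5 fell, and of plexins 2 rose and 1 fell. Sema4d, a transmembrane ligand of Plxnb1, was at 31.3, 17.8 and 24.8 CPM (3.13 ± 0.33, edgeR adjusted p = 4.08e-05), and Plxnb1 itself was at 42.5, 36.2 and 48.2 CPM (2.63 ± 0.22, adjusted p = 9.73e-06). Sema3e (2.55) and Sema4g (2.42) were the next. Sema6b fell by 4.03, Dpysl3 fell by 3.52, Mical1 by 3.58 and Fyn by 3.32 on the log2 scale.

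In mural cells, 11 were higher and 6 lower, beside 18.3% and 14.7%, with a median of 0.31 against −0.07. The counts were 5 and 3 of the ligands, 2 and 2 of the plexins and 4 and 1 of the carriers. Sema5b led at 8.82, 7.65 and 24.9 CPM against 1.58 or less elsewhere (5.57 ± 0.51, edgeR adjusted p = 4.15e-05). Mical2 (3.42) and Mical1 (2.92), enzymes that oxidize actin downstream of plexins, and Plxnb1 (2.73) followed. Sema7a fell by 2.10, Plxna4 by 2.06, Sema4d by 1.58 and Fes by 1.55 on the log2 scale. In these class contrasts the share of genes called was high over all genes, and the list's counts are read beside it.

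**Figure D4:**
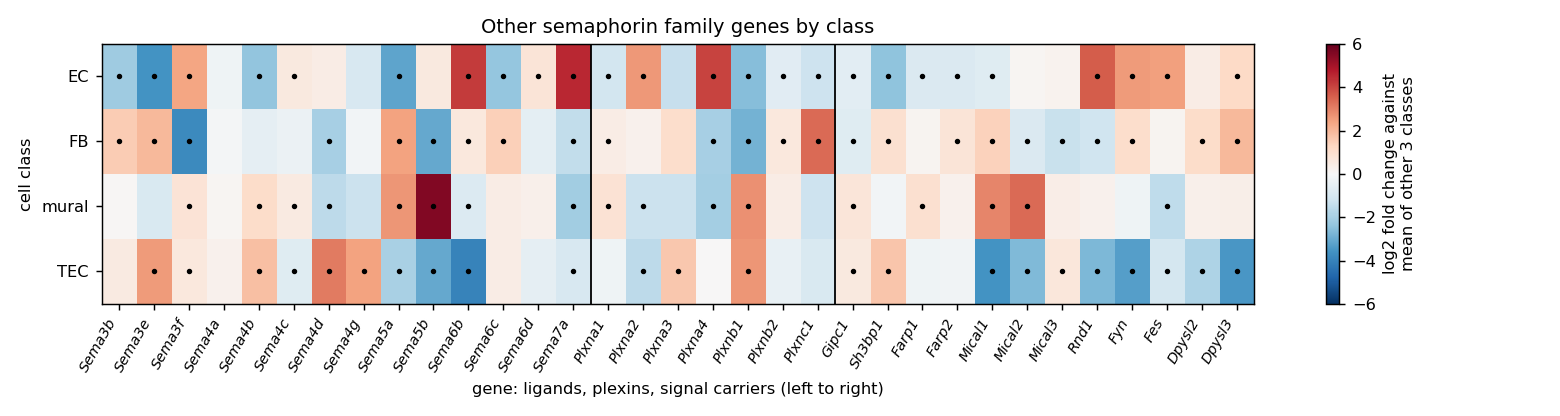
Color gives the log2 fold change of each of the 33 family genes tested (horizontal axis, ligands, plexins and signal carriers from left to right) in a class against the mean of the other 3 classes, and a dot marks an edgeR adjusted p under 0.05 over all genes. Sema7a, Sema6b, Plxna4 and Rnd1 stand out as high in EC, Plxnc1 in FB, Sema4d in TEC and Sema5b in mural cells.

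Between libraries, sex and genotype each rested on 1 library against 1, so ratios are given with conditional binomial 95% intervals for counting error and with no test. Sex, pool and library cannot be told apart for Foxn1Lin female against Foxn1Lin male, nor genotype, pool and library for Foxn1Lin male against wild type male. In EC, 3 of 8 members with 20 or more UMIs were past 2-fold between female and male, beside 18.1% of genes. Sema3c was 83.6 times higher in the female (68.6 to 103) and Sema3d 27.9 times (10.6 to 104, on 137 and 4 UMIs), while Sema3a was at 0.216 of the male level (0.175 to 0.265). Few cells carried these UMIs: 7 female EC held 74.5% of the 137 of Sema3d, and 21 male EC held 84.6% of the 448 of Sema3a. Plxnd1 was at 1.81 and Nrp1 at 1.24, and Sema3g, Nrp2 and Sema6a at 0.953, 0.945 and 0.712. Venous-type EC were 218 of 1883 female and 370 of 823 male EC. Sema3a was at 40.4 CPM in the female and 107 CPM in the male venous-type EC, and the other way round in other EC, at 6.09 and 1.45 CPM. The part of the cell mix in the ratio was not tested.

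In FB, 3 of 7 members were past 2-fold between female and male, beside 18.7%. These were Sema3c at 37.4 (32.9 to 42.6), Sema3d at 7.35 (5.30 to 10.5) and Nrp2 at 0.480 (0.446 to 0.517). Capsular-type FB were 935 of 1852 female and 104 of 864 male FB, and the part of this cell mix was not tested. Sema3d was at 55.3 CPM in the female and 21.6 CPM in the male capsular-type FB, and at 2.82 and 1.87 CPM in other FB. Among other FB alone, Nrp2 was at 127 CPM in the female and 197 CPM in the male. In TEC, 3 of 7 were past 2-fold, beside 17.7%: Sema3c at 160 (118 to 223), Sema3d at 2.03 (1.16 to 3.65) and Plxnd1 at 2.03 (1.56 to 2.65). Without the TEC that carried parathyroid markers, Sema3d was at 1.23 (0.610 to 2.49, on 20 and 17 UMIs) and Plxnd1 at 2.19 (1.66 to 2.91). In mural cells, 2 of 7 were past 2-fold, beside 14.0%: Sema3c, on 2598 and 4 UMIs, and Sema3d at 3.56 (1.5 to 9.34). Of the female Sema3d UMIs, 4 TEC held 65.9% of 41 and 2 mural cells 65% of 20. Sema3c thus passed 2-fold in each of the 4 classes, and it also differed between the uncalled barcodes of these libraries.

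Between Foxn1Lin male and wild type male, few members were past 2-fold. In EC 0 of 7 were, beside 10.0% of genes, and all 7 were lower in Foxn1Lin male, from 0.565 for Sema3g (0.509 to 0.628) to 0.810 for Sema6a (0.777 to 0.844), where the median log2 ratio of all genes was −0.10 (−0.14 in FB and TEC, and 0.13 in EC between female and male). In FB 0 of 7 were, beside 10.9%, with Nrp1 at 0.513 (0.490 to 0.536), Sema3c at 0.515 (0.445 to 0.596) and Plxnd1 at 0.526 (0.474 to 0.582), and Nrp2 at 1.02 (0.957 to 1.08). In TEC 2 of 7 were, beside 15.2%, Sema6a at 0.431 (0.338 to 0.543) and Sema3d at 0.395 (0.235 to 0.634, on 20 and 143 UMIs). In mural cells 1 of 6 was, beside 11.2%, Sema3d at 0.305 on 8 and 23 UMIs. In wild type male, 1 TEC held 73 of the 143 Sema3d UMIs and 2 mural cells held 69.6% of the 23, so both ratios rested on few cells. For Sema6a, 26 of 878 wild type TEC held 53.7% of the 551 UMIs, and 3 of 430 TEC of Foxn1Lin male held 25% of the 84. Without the TEC that carried parathyroid markers, Sema6a was at 0.384 (0.295 to 0.494) and Sema3d at 0.366 (0.207 to 0.608). Over all TEC and mural cells, the intervals of these 3 ratios reached within 2-fold, as did those of Nrp2 in FB, of Sema3d and Plxnd1 in TEC and of Sema3d in mural cells between female and male.

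**Figure D5:**
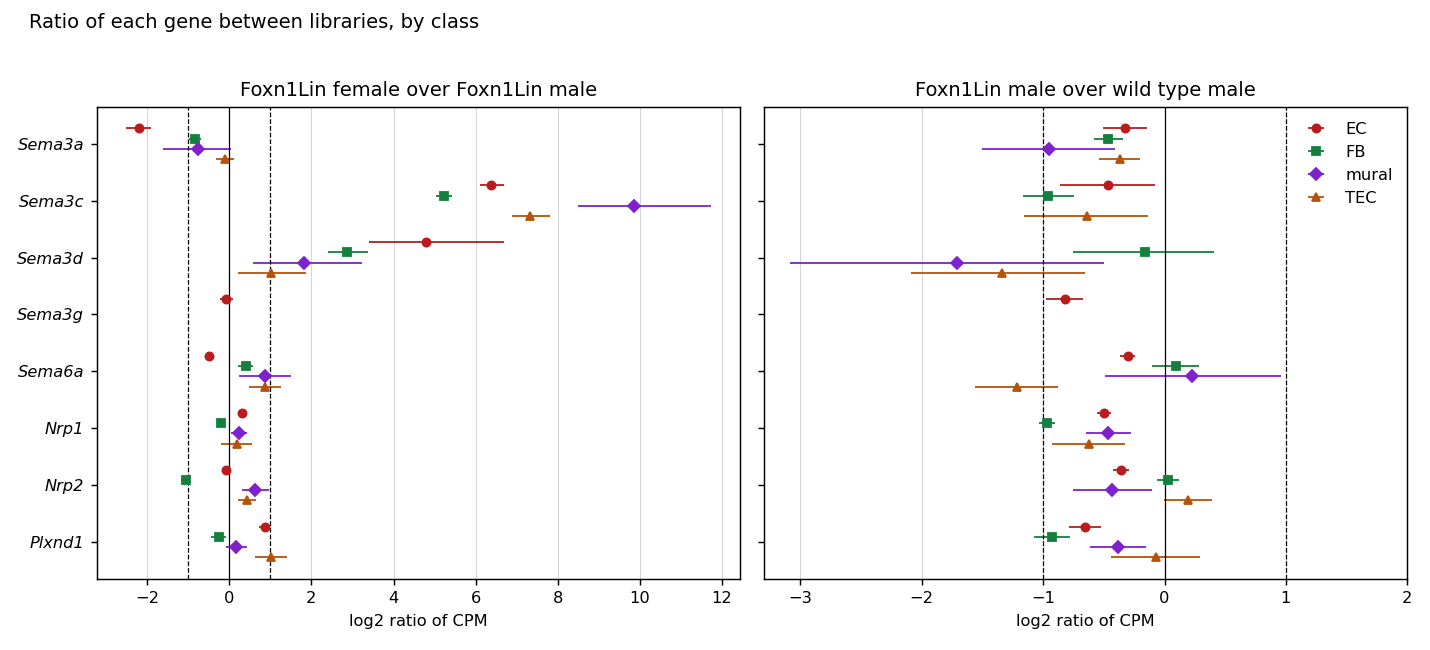
Log2 ratio of CPM between libraries (horizontal axes, on different scales) for each gene in EC (circles), FB (squares), mural cells (diamonds) and TEC (triangles), with conditional binomial 95% intervals and dashed lines at 2-fold; pairs with under 20 UMIs are left out. Sema3c lies past 2-fold in all 4 classes between Foxn1Lin female and male, and most ratios of Foxn1Lin male to wild type male lie below 0.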

How the data were processed

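UMI counts per gene and barcode, called and uncalled, were made by the authors with Cell Ranger 7.01 (as the submitters' processing notes write it) on GRCm38 (mm10) with reporter sequences added and were deposited as whole-number counts, and the headers of the matrices of all barcodes name another version. Library summaries deposited by the authors give percent values: sequencing saturation was 52.1% to 81% and reads in cells 74.7% to 93%. The 8 members and the gene lists were chosen with earlier results of these data known, and the markers of the cell types were fixed before the rule that splits each class by them. All 8 members were named, and of the family list at most 4 genes each way per class contrast, by the largest log2 fold change past the threshold. Counts were summed per library and class or type and tested with edgeR 4.0.16 (TMM, filterByExpr, quasi-likelihood, library as a block, adjusted p below 0.05) in R 4.3.3. The procedure was also run on simulated counts, but these were drawn with no library effect. That run therefore does not bear on the library block. DESeq2 1.42.0, other class and type thresholds, removal of low-quality barcodes (1000 genes or fewer with 20% or more mitochondrial UMIs), no filter on low counts, no block, and leaving out each library were alternatives. Doublets were treated by dropping barcodes of 2 or more classes. Scrublet's automatic cut marked 0, 15 and 1 barcodes, so an alternative removed the highest 3.9% of scores. Ratios between libraries needed 20 or more UMIs. Whether the 3 libraries' pools differ in other ways than sex and genotype is not given in the sources used here.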

Additional observations from a re-analysis of the deposited data

Results flagged for a closer look

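A few ratios between cell types pointed one way in a library and the opposite way in another, each with an interval apart from 1, and the difference between libraries was not tested. Sema3c in arterial-type over other EC was 3.26 in wild type male, 0.910 in Foxn1Lin female and 0.364 in Foxn1Lin male. The intervals cover counting error only, and the wild type and male Sema3c ratios rested on few cells. In wild type male, 5 EC held 54.1% of the 133 endothelial Sema3c UMIs. In Foxn1Lin male, 5 EC held 51% of the 98, and arterial-type EC had 14 of them. The part of these cells in the ratios was not tested. Sema3a in capsular-type over other FB was 1.16 in the female library, 0.780 in the male and 0.704 in the wild type library. Sema3a in aaTEC1-type over other TEC was 1.94 in Foxn1Lin female and 0.457 in Foxn1Lin male, and Sema6a was 2.22 in Foxn1Lin female and 0.686 in wild type male. Parathyroid markers differed in the same cells, at 7963 against 738 CPM in Foxn1Lin female, 75.5 against 8496 CPM in Foxn1Lin male and 6474 against 24.7 CPM in wild type male. Sema3d in pericyte-type over smooth muscle-type mural cells was 2.93 in Foxn1Lin female, on 12 and 8 UMIs, and 0.178 in wild type male, on 2 and 20 UMIs. In each of these libraries 2 mural cells held most of the Sema3d UMIs, 65% in the female and 69.6% in the wild type library.

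Called barcodes that met no class rule, which the comparisons leave out, held more Sema3a than any class in 2 of 3 libraries, at 140 CPM in Foxn1Lin male and 192 CPM in wild type male. In Foxn1Lin female they were at 50.9 CPM, against 53.9 CPM in TEC and 53.5 CPM in FB. Sema3d was at 15.6 CPM in these barcodes of Foxn1Lin male. Few barcodes held many of these UMIs. Of those in no class, 33 in Foxn1Lin male, 68 in wild type male and 20 in Foxn1Lin female had 5 or more Sema3a UMIs, with 62.6%, 76.3% and 31.5% of the Sema3a UMIs. Their median depths were 10108, 8062 and 9170 UMIs, against 2458, 2597 and 1766.5 UMIs for barcodes of no class without a Sema3a UMI. The Epcam rule leaves EpCAM-negative epithelium, such as the aaTEC2 cells that the authors of the data describe, out of TEC. Which cells the barcodes of no class were was not tested.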

How the results depend on the processing

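Of the recomputed log2 fold changes of members within classes, 336 kept their direction and side of the threshold, 28 lost and 16 gained a call, and 11 turned sign, none of them a called value. Of recomputed EC levels, 85 stayed within the counting interval of the main value and 11 did not, and of EC shares thinned to 2000 UMIs a cell 23 left it. Members called with no library block numbered 0 in arterial-type EC and 1 each in venous-type EC, capsular-type FB and pericyte-type cells, and 2 in arterial-type EC with 3 marker UMIs. In aaTEC1-type TEC 1 was called with class thresholds of 3 and 8 or of 1 and 3 UMIs, without the highest Scrublet scores, with DESeq2 and with no filter. Leaving out a library gave 0 to 3 called members in pericyte-type cells (0 without Foxn1Lin male and 0 without wild type male). Family counts ranged over the same omissions from 9 to 13 lower in EC, 8 to 14 higher in FB, 6 to 11 higher in TEC, and 7 to 12 higher and 2 to 7 lower in mural cells, the lowest without wild type male and, for mural lower, also without Foxn1Lin male. Past 2-fold were 1 member in TEC between female and male under TMM and 1 in FB between the male and wild type libraries at thresholds of 3 and 8 UMIs. Turned signs were of Sema3c in arterial-type EC (−0.70 with 3 marker UMIs, −0.024 with no block, and −0.47 without wild type male to 0.63 without Foxn1Lin male). In aaTEC1-type TEC the sign turned for Sema3a (0.0055 with no block, 0.197 without TEC carrying parathyroid markers, and −0.42 without Foxn1Lin female to 0.49 without Foxn1Lin male), Sema3c (0.0197 with thresholds of 3 and 8 UMIs, and −0.66 without Foxn1Lin female to 0.0197 without Foxn1Lin male), Sema6a (−0.00079 with thresholds of 1 and 3, and −0.30 without Foxn1Lin female to 0.57 without wild type male) and Plxnd1 (−0.031 without Foxn1Lin male to 0.42 without wild type male). The cause of these changes was not tested. The comparisons of types and classes were made within libraries, with the library as a block. Between libraries, no paired analysis was possible because each group has 1 library. Sex cannot be told apart from pool and library, nor genotype from pool and library, and counts under 20 UMIs limit Sema3d and Sema3g outside the classes where they are high.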
